A study of Mus musculus with 18 samples.

Results

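The genes described here are 8 that progesterone and glucocorticoids are both known to act on or act through: Fkbp5, Fkbp4, Tsc22d3, Zbtb16, Sgk1, Klf9, Hsd11b1 and Hsd11b2. They were picked by symbol from a table of counts for 22238 gene symbols. No rule on their values was used, but earlier results of these data were known when they were picked. All 8 were in the table, and all 8 were among the 15494 genes kept by a filter on low counts.

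RNA of whole uterus homogenate came from ovariectomized adult CD-1 mice, an outbred stock whose ovaries, the main source of estrogen and progesterone, had been removed. One arm received doxorubicin (DOX), an anthracycline used in chemotherapy, and the other received the vehicle (PBS). Within each arm the hormone label was OIL (the hormone vehicle), E2 (estradiol) or P4 (progesterone), which gave 6 groups of 3 libraries: PBS OIL, DOX OIL, PBS E2, DOX E2, PBS P4 and DOX P4. The sources used here give no dose, no time and no age beyond adult, no group is labelled as given a glucocorticoid, and the adrenal glands are not mentioned. Nothing says that libraries of a group came from separate mice, and the spread that the p-values measure is that between these samples and may be technical. The total count of a library was 18042357 at the least and 39783785 at the most. All 7 markers of uterus were detected in every group, with a summed level of 1096 to 1874 CPM (counts per 1000000 counts of a library), and 15 adipocyte markers summed to anything from 178 to 7365 CPM. A homogenate mixes cell types, so fewer cells of a type and less RNA per cell cannot be told apart in any value below.

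The progesterone and glucocorticoid receptors are closely related ligand-activated transcription factors that can bind the same palindromic DNA element, so a set of genes answers to either hormone. Before hormone binds, both receptors sit in complexes with the chaperone HSP90, where FKBP52 (the product of Fkbp4) favours receptor activity and FKBP51 (Fkbp5) lowers it. In the uterus FKBP52 is needed for the progesterone response of implantation. The 11-beta-hydroxysteroid dehydrogenases set the local supply of glucocorticoid, with the type 1 enzyme (Hsd11b1) regenerating the active steroid and the type 2 enzyme (Hsd11b2) inactivating it.

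On mouse build GRCm38 with the GENCODE M21 annotation, all 8 are protein-coding genes. Fkbp5 lies on chromosome 17 at 28399094 to 28517527 (minus strand), and Fkbp4 on chromosome 6 at 128429735 to 128438677 (minus). Tsc22d3 lies on chromosome X at 140539528 to 140600659 (minus), Zbtb16 on chromosome 9 at 48654297 to 48836222 (minus), Sgk1 on chromosome 10 at 21882184 to 21999903 (plus) and Klf9 on chromosome 19 at 23141226 to 23168134 (plus). Hsd11b1 lies on chromosome 1 at 193221634 to 193264075 (minus) and Hsd11b2 on chromosome 8 at 105518755 to 105523988 (plus). Lamb3 overlaps Hsd11b1 on the other strand without sharing an exon base, and the strand setting of the counting is not given in the sources used here.

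Promoter windows of 300 bases (250 before to 50 after a transcript start) from RefSeq, build GRCm38.p6, were matched by symbol for 6 of the 8 genes, with 13 windows among them, and none for Zbtb16 or Hsd11b2. Each was searched for the palindrome to which both receptors bind, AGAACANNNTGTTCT, which reads the same on both strands. It was in 3 of 32851 windows (0.00913%), and 1 of the 3 belongs to Sgk1. The 3 matches are shown so that their spacers can be compared, each on the strand of its gene, with all 15 bases in capitals.
Sgk1, chr10:21993701-21993715 (plus): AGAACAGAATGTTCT
Acnat2, chr4:49408239-49408253 (minus): AGAACACAATGTTCT
Gm35041, chr12:76972805-76972819 (plus): AGAACACGGTGTTCT
The Sgk1 match starts 189 bases before the transcript start of its window and 965 bases before the next annotated start. The whole window is shown because Sgk1 is the member that estradiol raised most after DOX, with the palindrome in capitals.
Sgk1, chr10:21993640-21993939 (plus): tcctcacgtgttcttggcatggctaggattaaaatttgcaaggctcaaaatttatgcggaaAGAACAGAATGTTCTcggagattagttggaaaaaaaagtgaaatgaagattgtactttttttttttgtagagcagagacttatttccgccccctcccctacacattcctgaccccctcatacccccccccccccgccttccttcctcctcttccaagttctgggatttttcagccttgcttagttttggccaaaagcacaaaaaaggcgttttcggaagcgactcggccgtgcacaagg
The single arm AGAACA, or TGTTCT on the other strand, is common, with 6233 of the 32851 windows (19%) holding it, and it overlaps the palindrome by construction. Of the 6 matched members it was found in Sgk1 and Tsc22d3. A Tsc22d3 window is shown beside that of Sgk1 because estradiol moved these genes in opposite directions, with the arm in capitals.
Tsc22d3, chrX:140600473-140600772 (minus): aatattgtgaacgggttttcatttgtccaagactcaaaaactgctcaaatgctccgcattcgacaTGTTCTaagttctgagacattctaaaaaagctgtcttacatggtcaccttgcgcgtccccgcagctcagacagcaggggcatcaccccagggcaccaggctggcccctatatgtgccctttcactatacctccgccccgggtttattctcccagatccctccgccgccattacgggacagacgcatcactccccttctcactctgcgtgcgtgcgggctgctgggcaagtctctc
The shorter core ACANNNTGT, which is part of the palindrome and also reads the same on both strands, was in 6.85% of all windows and, among the members, in Sgk1 alone. A match is a description of the letters, not a site or a cause.

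Progesterone raised 4 of the 8 genes in both arms, and by the same 4 names: Fkbp5, Fkbp4, Zbtb16 and Hsd11b2. None fell. Of all genes tested, 31.8% were called in the PBS arm (16.2% higher and 15.6% lower) and 29.8% in the DOX arm (14.7% higher and 15.1% lower), called meaning an adjusted p below 0.05. The median log2 fold change of the 8 genes was 0.60 in the PBS arm and 0.55 in the DOX arm, against -0.01 and -0.02 over all genes tested. The P4 and OIL libraries did not overlap for 5 of the 8 genes under PBS and 7 under DOX, which held for 46.1% and 49.8% of all genes. Marker levels of other cell types moved as well, with no marker of these lists at 0: the 15 adipocyte markers summed to 965 to 3733 CPM in PBS OIL and 212 to 569 CPM in PBS P4, and to 444 to 1170 and 186 to 563 CPM in the DOX arm. The 9 smooth muscle markers summed to 7526 to 8790 CPM in PBS OIL and 13937 to 18448 CPM in PBS P4, and to 6669 to 14828 and 15170 to 27335 CPM in the DOX arm. With the adipocyte score (mean log2 CPM of the 15 markers) as a covariate Fkbp5, Zbtb16 and Hsd11b2 were still called in both arms. That score was 5.11 to 6.74 in PBS OIL and 1.90 to 4.21 in PBS P4. These did not overlap, so under PBS the adjustment compares the groups at a score they did not share. The part of smooth muscle content was not tested. Each hormone is compared with the OIL libraries of its own arm, so the E2 and P4 comparisons of an arm share these controls.

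Hsd11b2, which inactivates glucocorticoid and so keeps it from the mineralocorticoid receptor, had the largest rise. Its level was 13.9, 14.4 and 23.5 CPM in the PBS OIL libraries and 226, 213 and 213 CPM in the PBS P4 libraries. In the DOX arm it was 18.3, 17.1 and 18.2 CPM with OIL and 169, 193 and 306 CPM with P4. Every P4 library was far above every OIL and every E2 library, and the arms overlapped. The log2 fold change was 3.65 ± 0.33 (SE, n = 3 per group) under PBS and 3.64 ± 0.33 under DOX, with adjusted p-values of 5.67e-06 and 6.41e-06 (edgeR's quasi-likelihood test, Benjamini-Hochberg).

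Zbtb16 encodes PLZF, a zinc finger transcription factor known as a target of both receptors in endometrial stroma. It was at 11.6, 15.8 and 9.46 CPM in PBS OIL and at 124, 103 and 96.2 CPM in PBS P4. In the DOX arm the OIL libraries held 23.2, 33.7 and 32.6 CPM and the P4 libraries 82.3, 98.8 and 95.6 CPM. The P4 libraries stood apart from all others, while the OIL level they started from was higher after DOX in all 3 libraries. The rise was 3.13 ± 0.27 on the log2 scale under PBS and 1.63 ± 0.25 under DOX (edgeR's quasi-likelihood test, adjusted p = 4.57e-06 and 0.000331).

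Fkbp5, the co-chaperone whose induction is a standard read-out of glucocorticoid receptor activity, was at 10.2, 15.3 and 8.72 CPM in PBS OIL and at 82.0, 92.2 and 75.5 CPM in PBS P4. The DOX OIL libraries held 15.2, 18.9 and 17.6 CPM and the DOX P4 libraries 86.7, 90.1 and 86.0 CPM. The P4 groups of the arms overlapped and lay above every other library. The rise was 2.87 ± 0.19 on the log2 scale under PBS and 2.35 ± 0.19 under DOX (edgeR's quasi-likelihood test, adjusted p = 4.39e-07 and 2.09e-06).

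Fkbp4 rose less. It was at 184, 119 and 162 CPM in PBS OIL, 195, 249 and 285 CPM in PBS P4, 165, 129.5 and 155 CPM in DOX OIL, and 203, 185 and 257 CPM in DOX P4. The P4 and OIL libraries did not overlap in either arm, but the gap between the groups was small. The log2 fold change was 0.65 ± 0.17 under PBS and 0.52 ± 0.17 under DOX (edgeR's quasi-likelihood test, adjusted p = 0.0101 and 0.0316). The call was lost under PBS without PBS P4 replicate 3 (0.52) and with an adipocyte score as a covariate (0.36), and under DOX with that covariate (0.39) and without DOX OIL replicate 2 (0.43), DOX OIL replicate 3 (0.55) or DOX P4 replicate 3 (0.38).

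The other 4 genes did not pass edgeR's test on the 6 groups with progesterone in either arm. Tsc22d3, which encodes the anti-inflammatory protein GILZ, had log2 differences of 0.05 ± 0.15 under PBS and 0.17 ± 0.15 under DOX. Klf9, a Krüppel-like factor known as a partner of the progesterone receptor in endometrium, differed by 0.56 ± 0.23 and 0.44 ± 0.23, with P4 libraries above OIL libraries in both arms and adjusted p-values of 0.0778 and 0.164 in edgeR's quasi-likelihood test. Klf9 passed with only the groups compared in both arms (0.55 and 0.45), and under PBS in the Wald test of DESeq2 (0.58, adjusted p = 0.0441). Sgk1, a kinase that promotes sodium transport and is known from uterine epithelium, differed by -0.60 ± 0.24 under PBS and 0.58 ± 0.24 under DOX (edgeR's quasi-likelihood test, adjusted p = 0.0654 and 0.0806). Its PBS value turned on the control libraries, at -0.12 without PBS OIL replicate 2, and passing at -0.84 without PBS OIL replicate 1 and at -0.75 without PBS OIL replicate 3. The DOX value of Sgk1 passed in the Wald test of DESeq2 (0.62, adjusted p = 0.0393) and with only the groups compared (0.59). Hsd11b1 differed by -0.63 ± 0.32 under PBS and -0.25 ± 0.32 under DOX, without a call. With the adipocyte score as a covariate these values were -0.0 ± 0.30 and 0.07 ± 0.26, and they were -0.96 without PBS P4 replicate 1 and -0.08 without DOX OIL replicate 2.

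**Figure D1:**
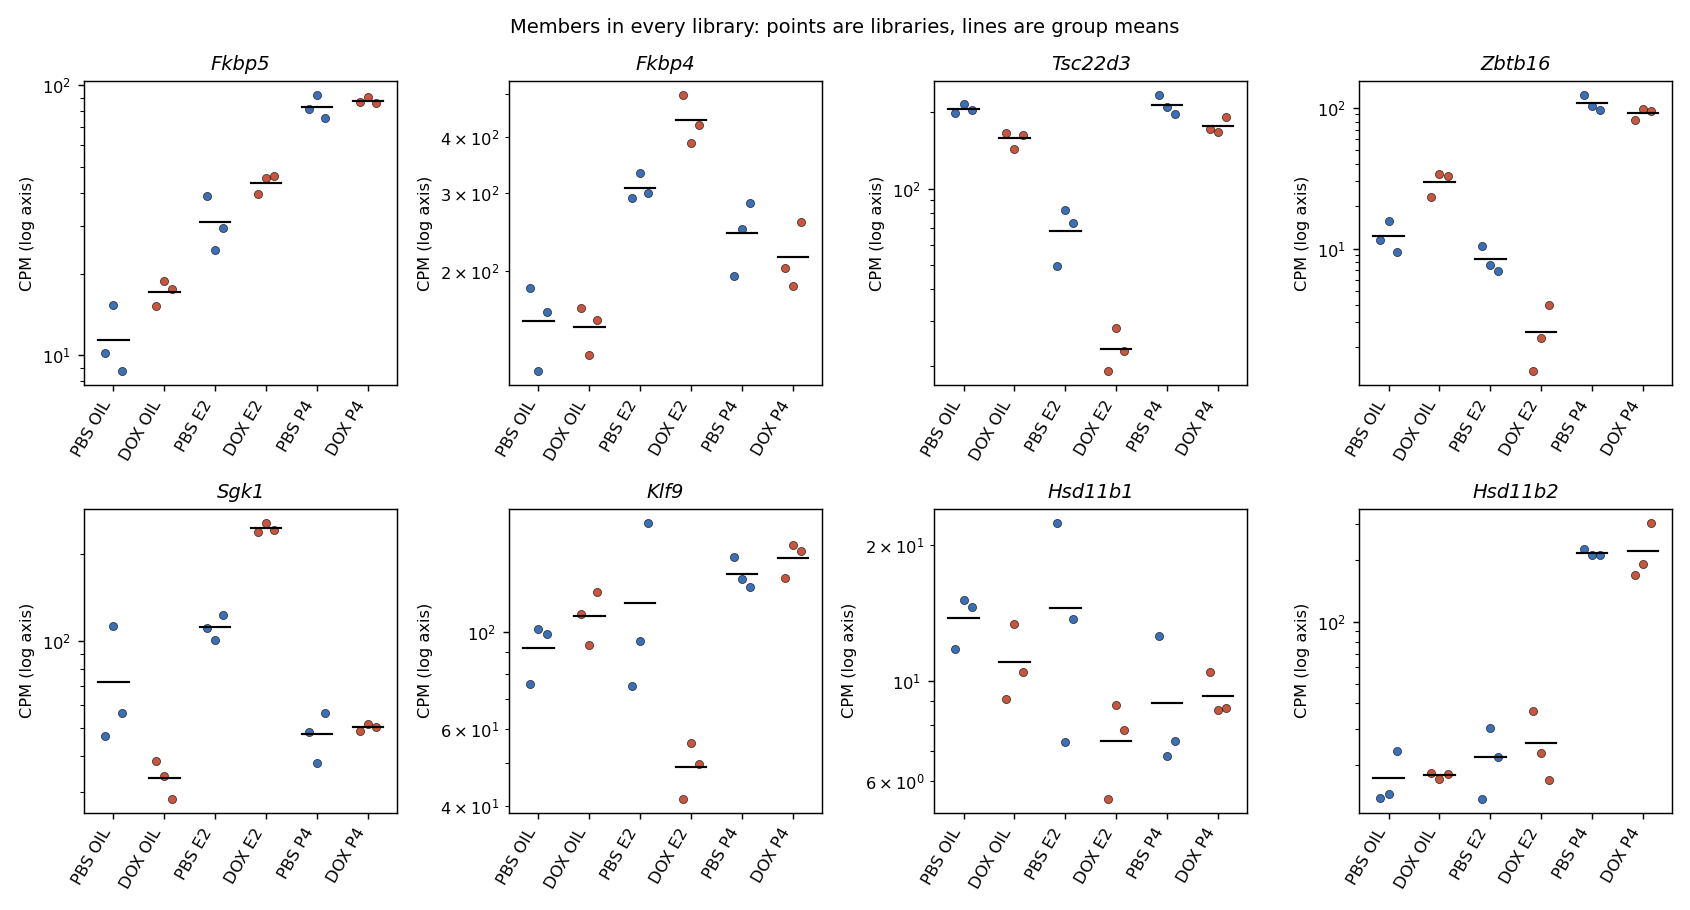
CPM of each of the 8 genes (1 panel per gene, vertical axis on a log scale) in the 18 libraries. Points are libraries and lines are the mean of each group of 3. The P4 libraries of Hsd11b2 lie between 169 and 306 CPM, and all other libraries of that gene are at 36.6 CPM or below.

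Estradiol raised Fkbp5, Fkbp4 and Sgk1 in both arms and lowered Tsc22d3 in both. In the PBS arm 4 of the 8 genes were called (3 higher, 1 lower) where 61.4% of all genes tested were called (29.6% higher and 31.9% lower). In the DOX arm 6 were called (3 higher, 3 lower) where 72.6% of all genes were called (35.1% higher and 37.5% lower), the further falls being Zbtb16 and Klf9. Counts of 4 and 6 of 8 are near these shares. The E2 and OIL libraries did not overlap for 3 of the 8 genes under PBS and 7 under DOX, against 62.4% and 75.8% of all genes. Hsd11b1 and Hsd11b2 did not pass in either arm.

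Tsc22d3 was at 199, 216 and 204 CPM in PBS OIL and at 49.5, 82.1 and 73.0 CPM in PBS E2. It was at 166, 143 and 163 CPM in DOX OIL and at 19.0, 28.2 and 22.8 CPM in DOX E2. No library of one of these 4 groups overlapped with another group, and the DOX E2 libraries were the lowest of all 18. The fall was -1.60 ± 0.16 on the log2 scale under PBS and -2.76 ± 0.17 under DOX (edgeR's quasi-likelihood test, adjusted p = 4.83e-07 and 1.31e-09).

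Sgk1 moved the other way. The PBS E2 libraries held 111, 101 and 123 CPM and the PBS OIL libraries 46.7, 113 and 56.4 CPM, so that 1 OIL library lay among the E2 libraries. The DOX E2 libraries held 239, 258 and 242 CPM and the DOX OIL libraries 38.2, 34.1 and 28.3 CPM, far apart from each other. The rise was 0.63 ± 0.24 on the log2 scale under PBS (edgeR's quasi-likelihood test, adjusted p = 0.0302) and 2.88 ± 0.25 under DOX (adjusted p = 5.34e-08). Under PBS it did not pass without PBS OIL replicate 1 (0.40), PBS OIL replicate 3 (0.48), PBS E2 replicate 1 (0.64) or PBS E2 replicate 3 (0.56), and it was 1.12 without PBS OIL replicate 2. The PBS rise did not pass either with only the groups compared (0.68).

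Fkbp4 was at 291, 331 and 299 CPM in PBS E2 and at 497, 387 and 425 CPM in DOX E2, with no overlap between the arms or with OIL. Its rise was 0.99 ± 0.17 under PBS and 1.54 ± 0.17 under DOX (edgeR's quasi-likelihood test, adjusted p = 0.000134 and 8.88e-07). Fkbp5 was at 39.1, 24.6 and 29.6 CPM in PBS E2 and at 39.5, 45.3 and 46.0 CPM in DOX E2, between the OIL and the P4 libraries. Its rise was 1.45 ± 0.19 and 1.34 ± 0.18 (edgeR's quasi-likelihood test, adjusted p = 6.65e-06 and 6.76e-06).

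Zbtb16 was at 10.5, 7.70 and 6.97 CPM in PBS E2, overlapping PBS OIL, and at 1.34, 2.32 and 3.98 CPM in DOX E2, below every other library. The log2 fold change was -0.53 ± 0.26 under PBS, which did not pass (adjusted p = 0.0914), and -3.52 ± 0.30 under DOX (edgeR's quasi-likelihood test, adjusted p = 3.24e-08). Under PBS it was -0.31 without PBS OIL replicate 2, and it passed without PBS OIL replicate 3 (-0.69) or PBS E2 replicate 1 (-0.74). Klf9 was at 75.1, 95.2 and 178 CPM in PBS E2, the widest spread of any group for this gene, and at 41.4, 55.6 and 49.7 CPM in DOX E2, below every other library. It differed by 0.33 ± 0.23 under PBS, without a call, and by -1.15 ± 0.24 under DOX (edgeR's quasi-likelihood test, adjusted p = 0.000379). The PBS value was -0.11 without PBS E2 replicate 3, and 0.57 with a call without PBS E2 replicate 1.

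The hormones were also compared with each other within an arm, a comparison added after the data were seen. Under PBS, Fkbp5, Tsc22d3, Zbtb16 and Hsd11b2 were higher with P4 than with E2 and Sgk1 was lower, which makes 5 of 8 called where 57.6% of all genes were (28.4% higher and 29.1% lower). Under DOX, Klf9 joined those higher with P4 and Fkbp4 joined those lower, which makes 7 of 8 called where 70.6% of all genes were (34.9% higher and 35.7% lower). The hormone groups did not overlap for 6 of the 8 genes under PBS and 7 under DOX, against 64.7% and 75.1% of all genes. Fkbp5 was 1.42 ± 0.18 higher with P4 on the log2 scale under PBS and 1.01 ± 0.18 higher under DOX (edgeR's quasi-likelihood test, adjusted p = 8.8e-06 and 0.000102). Zbtb16 spanned the widest gap, with P4 above E2 by 3.67 ± 0.28 under PBS and by 5.14 ± 0.31 under DOX (edgeR's quasi-likelihood test, adjusted p = 8.45e-08 and 3.27e-09). Fkbp4 was the co-chaperone that was higher with E2, by a log2 difference for P4 minus E2 of -1.02 ± 0.17 under DOX (edgeR's quasi-likelihood test, adjusted p = 6.83e-05), while the PBS difference of -0.34 ± 0.17 did not pass. That difference was -0.20 without PBS P4 replicate 1, and it passed without PBS P4 replicate 3 (-0.47) and with the adipocyte covariate (-0.61).

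**Figure D2:**
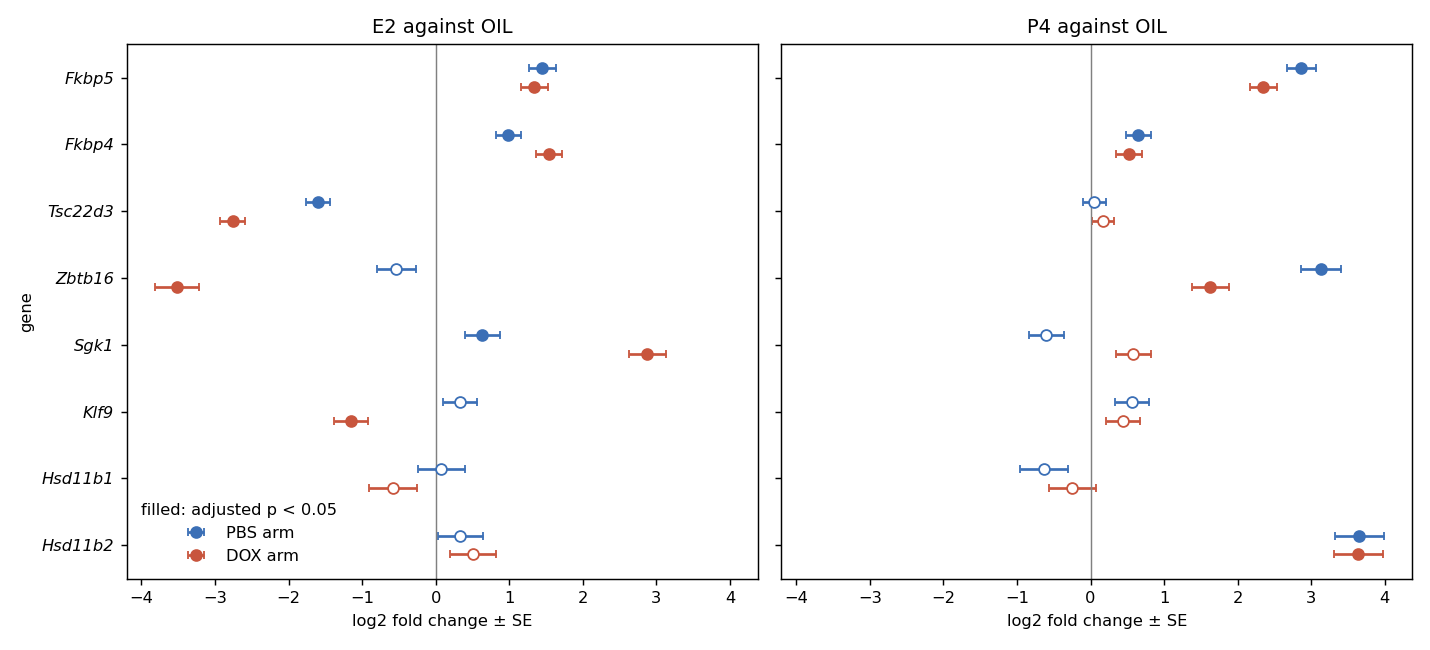
Log2 fold change ± SE of the 8 genes with E2 (left) and P4 (right) against OIL, in the PBS arm (blue) and the DOX arm (red), with filled points for an adjusted p below 0.05. The points of Hsd11b2 with P4 coincide at 3.65 and 3.64, while those of Sgk1 with E2 are apart at 0.63 and 2.88.

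Doxorubicin changed 7 of the 8 genes under estradiol: Fkbp5, Fkbp4 and Sgk1 were higher than in PBS E2, and Tsc22d3, Zbtb16, Klf9 and Hsd11b1 were lower. Of all genes tested 41% were called (20.4% higher and 20.6% lower). The median of the 8 genes was -0.38 against 0.02 over all genes. The count fell to 4 without DOX E2 replicate 1, and Tsc22d3, Zbtb16 and Klf9 were called lower and Sgk1 higher in each alternative fit of this comparison.

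Zbtb16 changed most, by -1.70 ± 0.30 on the log2 scale (edgeR's quasi-likelihood test, adjusted p = 0.000447), from 8.40 ± 1.88 CPM (SD, n = 3) in PBS E2 to 2.55 ± 1.34 CPM in DOX E2. Tsc22d3 changed by -1.55 ± 0.16 (edgeR's quasi-likelihood test, adjusted p = 8.74e-06), from 68.2 ± 16.8 to 23.3 ± 4.63 CPM. Klf9 changed by -1.24 ± 0.24 (edgeR's quasi-likelihood test, adjusted p = 0.000809), from 116 ± 54.3 to 48.9 ± 7.15 CPM. Sgk1 changed by 1.14 ± 0.24 (edgeR's quasi-likelihood test, adjusted p = 0.00156), from 112 ± 11 to 246 ± 9.92 CPM. Without PBS E2 replicate 3, the library at 178 CPM, Klf9 was at -0.80 and kept its call. For each of these 4 genes the DOX E2 libraries did not overlap with the PBS E2 libraries. Counting the co-chaperones this held for 6 of the 8 genes and for 49.3% of all genes.

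The co-chaperones changed by less, Fkbp5 by 0.48 ± 0.18 and Fkbp4 by 0.51 ± 0.17 (edgeR's quasi-likelihood test, adjusted p = 0.0403 and 0.0272), without overlap between the arms. For Fkbp5 the arms nearly touched, with 39.1 CPM in the highest PBS E2 library and 39.5 CPM in the lowest DOX E2 library. The call of Fkbp5 was lost in 7 of 13 alternatives, among them leaving out PBS E2 replicate 2 (0.34), PBS E2 replicate 3 (0.45) or any 1 of the DOX E2 libraries (0.44 to 0.53). The call of Fkbp4 was lost without PBS E2 replicate 1 (0.47), PBS E2 replicate 3 (0.48) or DOX E2 replicate 1 (0.38), and was 0.09 with the adipocyte covariate. Hsd11b2 did not pass, at 0.22 ± 0.31.

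Hsd11b1 was at 22.4, 7.32 and 13.7 CPM in PBS E2 and at 5.47, 8.82 and 7.80 CPM in DOX E2, so the groups overlapped. The difference was -0.98 ± 0.33 (edgeR's quasi-likelihood test, adjusted p = 0.0253). The library with 22.4 CPM, PBS E2 replicate 1, also had the highest adipocyte sum, 7365 CPM. All 15 adipocyte markers were detected in both groups, with sums of 567 to 7365 CPM in PBS E2 and 178 to 488 CPM in DOX E2, and 14 of the 15 were called lower with DOX. Without PBS E2 replicate 1 the difference was -0.51 and did not pass, it did not pass either without DOX E2 replicate 1 (-0.83), and with the adipocyte score as a covariate it was 0.10 ± 0.40. With the same covariate Tsc22d3 was at -1.79, Zbtb16 at -1.06, Sgk1 at 1.47 and Klf9 at -1.32, all with a call. The score was 4.03 to 7.31 in PBS E2 and 0.228 to 3.69 in DOX E2. These did not overlap, so the adjustment compares the groups at a score they did not share. Other markers moved between PBS E2 and DOX E2 as well: the 8 stromal markers summed to 3741 to 5430 and to 2152 to 3100 CPM, and the 8 epithelial markers to 628 to 921 and to 998 to 1413 CPM, with none at 0. The part of stromal and epithelial content in these results was not tested.

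Without estradiol the arms differed less. Under OIL 0 of the 8 genes were called, as against 0.0129% of all genes. In edgeR's quasi-likelihood test 4 of the 8 had an unadjusted p below 0.05, as had 1253 of all 15494 genes. The Wald test of DESeq2 called 2 of the 8, and its share over all genes is not given here. These 2 were Zbtb16, which was 1.28 ± 0.26 higher in edgeR (adjusted p = 0.294, and 0.00296 in DESeq2), and Sgk1, at -1.10 ± 0.24 (adjusted p = 0.427, and 0.0101 in DESeq2). Tsc22d3, Zbtb16 and Sgk1 did not overlap between the OIL groups, which held for 11.3% of all genes. Sgk1 was at -0.62 without PBS OIL replicate 2, the library at 113 CPM. Under P4 0 of the 8 genes were called, where 0% of all genes were, and DESeq2 called 0 of the 8. In edgeR's quasi-likelihood test 0 of the 8 had an unadjusted p below 0.05, where 822 of all 15494 genes had. The difference farthest from 0 under P4 was that of Tsc22d3, -0.27 ± 0.15, the 1 gene of the 8 without overlap (17.2% of all genes had none), and the others lay between -0.22 and 0.12.

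**Figure D3:**
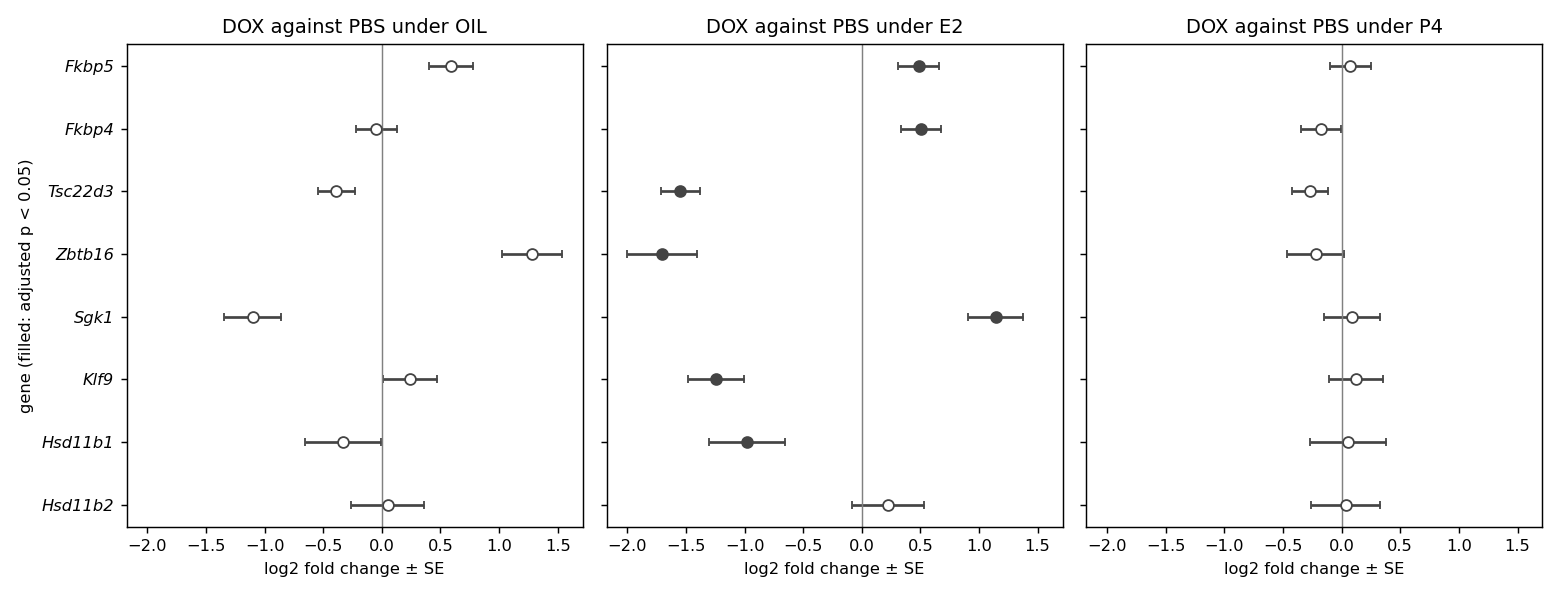
Log2 fold change ± SE of DOX against PBS for the 8 genes under OIL, E2 and P4, with filled points for an adjusted p below 0.05. Filled points occur under E2 alone, where 7 of 8 genes passed, and the P4 values lie between -0.27 and 0.12.

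Whether the estradiol response differed between the arms was tested with the interaction of E2 and DOX, which called 4 of the 8 genes (1 higher, 3 lower) where 22.9% of all genes were called (10.1% higher and 12.8% lower). The E2 response of Zbtb16 was lower in the DOX arm by a log2 difference of -2.98 ± 0.39 (edgeR's quasi-likelihood test, adjusted p = 0.000243). For Sgk1 the response was higher by 2.24 ± 0.34 (edgeR's quasi-likelihood test, adjusted p = 0.000574). For Klf9 it was lower by -1.49 ± 0.33 and for Tsc22d3 by -1.16 ± 0.22 (edgeR's quasi-likelihood test, adjusted p = 0.00588 and 0.00259). These values hold the DOX difference of both hormone states. For Sgk1 it was -1.10 under OIL and 1.14 under E2, and for Zbtb16 1.28 under OIL and -1.70 under E2. The OIL differences of both genes were not called in edgeR's quasi-likelihood test, while the Wald test of DESeq2 called them. The interaction was -0.11 ± 0.26 for Fkbp5 and 0.55 ± 0.24 for Fkbp4 (adjusted p = 0.793 and 0.109 in edgeR's quasi-likelihood test), and the enzymes did not pass. The interaction of P4 and DOX called 0 of the 8 genes and 0.00645% of all genes, and DESeq2 called 0 of the 8. In edgeR's quasi-likelihood test 525 of all 15494 genes had an unadjusted p below 0.05, and 2 of them were members. These 2 were Zbtb16, at -1.50 ± 0.35, and Sgk1, at 1.19 ± 0.34.

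Levels of different genes were compared per kilobase of exon, within a library. With the union of all annotated exons as the length, the geometric mean level of Fkbp4 in PBS OIL was 46.6 times that of Fkbp5, and in PBS P4 it was 9.81 times. In the DOX arm these ratios were 29.5 and 8.25, and with E2 they were 34.0 (PBS) and 33.8 (DOX). All P4 libraries had a log2 ratio of Fkbp5 to Fkbp4 between -3.68 and -2.80, above all other libraries, which lay between -5.97 and -4.54. With the longest transcript as the length, the PBS OIL and PBS P4 ratios of Fkbp4 to Fkbp5 were 19.8 and 4.17, a shift that is the same in every library, so the size of the ratio depends on the length used and the differences between groups do not. The level of Hsd11b2 per kilobase of all exons was 2.82 times that of Hsd11b1 in PBS OIL and 58.5 times in PBS P4, with 3.80 and 53.9 times in the DOX arm. With the longest transcript as the length these ratios were 1.31 and 27.2 under PBS and 1.77 and 25.1 under DOX. The E2 libraries varied more, with log2 ratios of Hsd11b1 to Hsd11b2 of -0.49, -3.26 and -1.89 in PBS E2 and -3.95, -2.59 and -2.33 in DOX E2. Hsd11b2 was above Hsd11b1 in all 18 libraries with the union of exons, and in all but PBS E2 replicate 1 (log2 ratio 0.61) with the longest transcript. These ratios were not tested beyond the fits of the single genes.

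**Figure D4:**
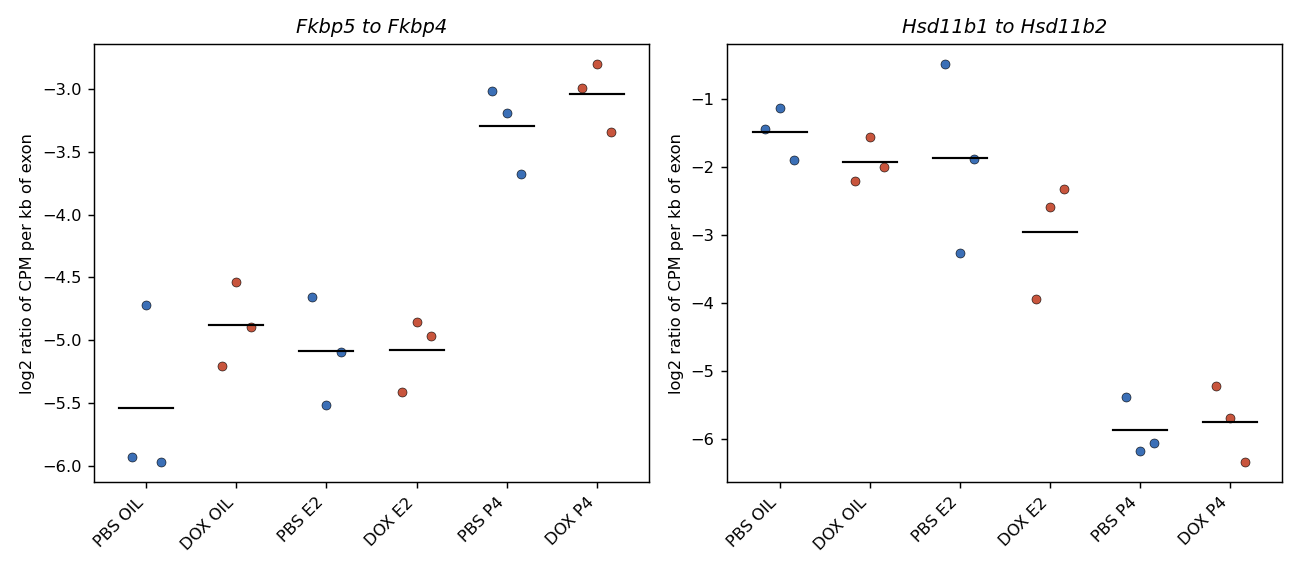
Log2 ratio per kilobase of exon (union of all annotated exons) of Fkbp5 to Fkbp4 (left) and of Hsd11b1 to Hsd11b2 (right) in each library, with lines for group means. The P4 libraries of both arms are separate from all others, with group means of -3.29 and -3.04 on the left and of -5.87 and -5.75 on the right.

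The receptors that act through the shared element were measured in the same libraries. Pgr, the progesterone receptor, was at 45.4, 39.6 and 67.5 CPM in PBS OIL and at 346, 271 and 414 CPM in PBS E2. In the DOX arm it was at 63.7, 44.8 and 56.8 CPM with OIL and at 468, 392 and 462 CPM with E2, and all P4 libraries lay between 34.0 and 46.6 CPM. Pgr rose with E2 in both arms, by 2.76 ± 0.21 and 2.999 ± 0.21 (edgeR's quasi-likelihood test, adjusted p = 3.25e-08 and 4.65e-09). Nr3c1, the glucocorticoid receptor, was at 89.5, 88.6 and 102 CPM in PBS E2 and at 47.2, 53.8 and 60.7 CPM in DOX E2. Every DOX E2 library was below every other library for this gene, and the change was -0.79 ± 0.14 (edgeR's quasi-likelihood test, adjusted p = 0.000369). Nr3c2, the mineralocorticoid receptor, which also binds glucocorticoids where Hsd11b2 is low, was at 14.1, 22.2 and 28.7 CPM in PBS E2 and at 9.24, 9.34 and 7.43 CPM in DOX E2, again the lowest of all. Its change was -1.32 ± 0.23 (edgeR's quasi-likelihood test, adjusted p = 0.000424). The interaction of E2 and DOX was -0.85 ± 0.19 for Nr3c1 and -1.36 ± 0.31 for Nr3c2 (edgeR's quasi-likelihood test, adjusted p = 0.00594 and 0.00713).

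**Figure D5:**
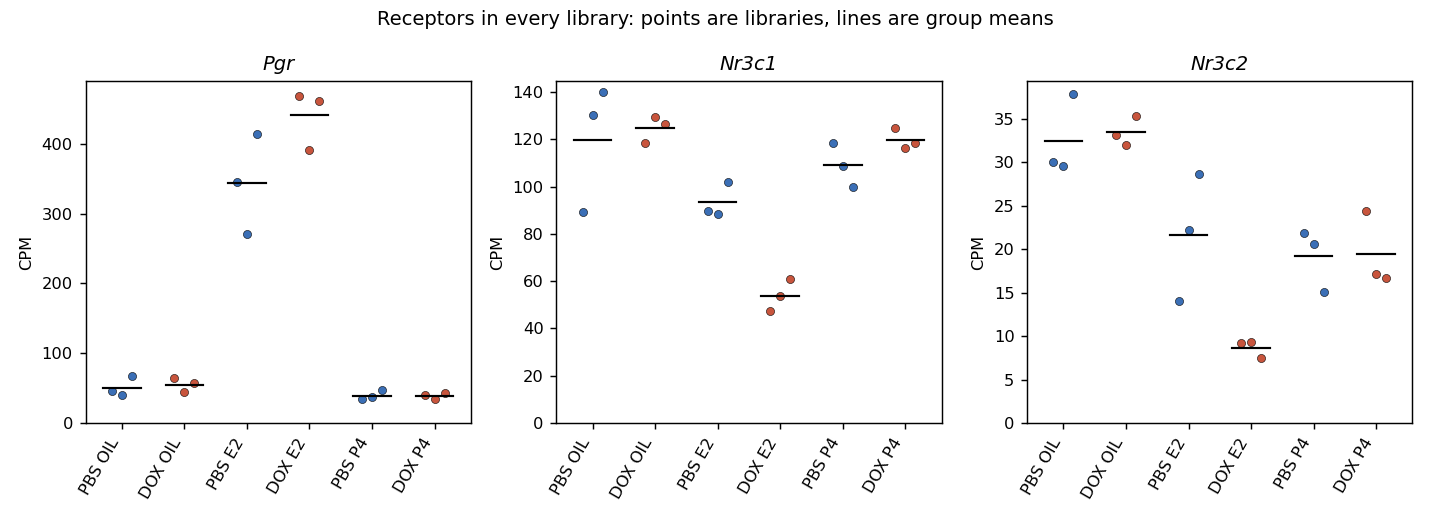
CPM of Pgr, Nr3c1 and Nr3c2 in each library, with lines for group means. Pgr is high in the E2 libraries of both arms (271 to 468 CPM), while Nr3c1 and Nr3c2 are lowest in the DOX E2 libraries (47.2 to 60.7 and 7.43 to 9.34 CPM).

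The counts in the lists that follow are to be read against the shares of all genes: with E2 29.6% were higher under PBS and 35.1% under DOX, with P4 16.2% and 14.7% were higher and 15.6% and 15.1% lower, and for DOX under E2 20.4% were higher and 20.6% lower. Of 15 HSP90 chaperones and co-chaperones that assemble with these receptors, E2 raised 15 in each arm, and P4 raised 9 under PBS and 8 under DOX with 0 lower. Hspa4 led the P4 responses, with 0.91 ± 0.12 under PBS and 0.71 ± 0.12 under DOX. Under E2, DOX raised 9 and lowered 1: Hsp90ab1, an HSP90 itself, was higher by 0.50 ± 0.10 and Hspa8 by 0.84 ± 0.18, and the heat shock co-chaperone Dnajb1 changed by -0.81 ± 0.15. Of 13 other FKBP genes tested, P4 raised 5 under PBS and 6 under DOX with 0 lower, and under E2 DOX raised 5 and lowered 2, with Fkbp11 at 1.54 ± 0.23 and Fkbp7 at -1.47 ± 0.16.

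Other genes known to be induced by progesterone in uterus numbered 24, of which P4 raised 13 and lowered 4 under PBS, where 16.2% of all genes were higher and 15.6% lower. Under DOX it raised 12 and lowered 2, where 14.7% and 15.1% were. Of 23 other genes known to be induced by glucocorticoids, P4 raised 5 and lowered 7 under PBS, and raised 7 and lowered 5 under DOX, so this list had no common direction. Its median log2 fold change was -0.03 and -0.13, against 0.77 and 0.49 for the progesterone list. Under E2, where DOX raised 20.4% and lowered 20.6% of all genes, it raised 9 and lowered 3 of the glucocorticoid list, with the metallothionein Mt2 at 1.43 and the clock gene Per1 at -1.88. For the progesterone list it raised 2 and lowered 4, with Dio2, an enzyme that activates thyroid hormone, at 2.18 and the insulin receptor substrate Irs2 at -1.80.

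Families of the single members were counted in the comparison of DOX and PBS under E2, where 41% of all genes were called. Of 14 other Krüppel-like factors 9 were lower and 0 higher, with Klf12 at -1.89 and Klf13 at -0.70, as was Klf9. Of 8 relatives and partners of Tsc22d3 and Zbtb16, 3 were lower and 0 higher: Tsc22d1 at -0.93, Zbtb20 at -0.88 and Tsc22d4 at -0.44. Among 11 genes of the SGK1 pathway 4 were higher and 3 lower, with Nedd4l, a ubiquitin ligase that SGK1 phosphorylates, at 1.05, the sodium channel subunit Scnn1b at 1.94, and the SGK1 substrates Ndrg2 and Ndrg1 at -1.72 and -0.61. Of 8 other genes of steroid metabolism and transport tested, 1 was higher and 4 lower, with Akr1c14 at -1.55 and Srd5a1, a 5-alpha-reductase, at -0.89. H6pd, which supplies the cofactor of the type 1 enzyme, had means of 94.4 ± 33.2 CPM in PBS E2 and 94.9 ± 9.02 CPM in DOX E2. Klf9, Tsc22d3 and Per1 are also known to follow the daily clock, and of 19 clock genes 13 were lower and 2 higher, with Dbp at -3.21 and Nr1d1 at -2.97. The hour of collection is not given in the sources used here, so its part in these differences was not tested.

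The genes whose levels followed each member most closely over the 18 libraries were found by Pearson correlation of log2 CPM among 12087 genes, as a description. The libraries share hormone and DOX states, and most genes moved with estradiol, so high values are common. Tsc22d3 was closest to Slc22a17, Zdhhc1 and Fbxo10 (r = 0.985 for each), and Fkbp4 to the cell cycle kinase Cdk4 (0.977), Pycrl (0.972) and Rbbp4 (0.967). Hsd11b2 was closest to Acot7 (0.974), the amino acid transporter Slc6a14 (0.97) and Nde1 (0.962), and Zbtb16 to Arvcf (0.968), Arhgap20 (0.961) and Hif3a (0.959). Sgk1 was closest to Tmem189 (0.955), Enc1 (0.949) and Atp6v0c (0.949), Fkbp5 to Fam118b (0.953), Mpi (0.951) and Zmpste24 (0.948), and Klf9 to genes that include Kcnn3 (0.939) and Bcl9l (0.925). Hsd11b1 was closest to Sncg (0.91), Acsl1 (0.89) and Cd36 (0.881), genes known from adipose tissue. No gene named here for one member was named for another.

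Ordered by group means, the 8 genes had different highest groups. Fkbp5 and Hsd11b2 were highest in DOX P4 and PBS P4, which overlapped with each other and not with the next group. Zbtb16 had the widest range, with a mean in PBS P4 that was 42.2 times that in DOX E2, and Tsc22d3 had a range of 9.17-fold between the same groups, with PBS OIL overlapping PBS P4. Fkbp4 and Sgk1 were highest in DOX E2, apart from PBS E2 as the next group, with ranges of 2.91-fold and 7.35-fold. Klf9 had a range of 3.02-fold, in which the 5 groups other than DOX E2 overlapped with their neighbours in the order. Hsd11b1 had the narrowest range, 1.96-fold, and every group overlapped with the next.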

How the data were processed

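Total RNA libraries of 18 uterus samples were compared. The authors deposited raw counts, with 1 row for each gene symbol. DESeq2 1.18.1, FastQC 0.11.5, HISAT2 2.1.0, R 3.4.4, SAMtools 1.6, StringTie 1.3.4d, Trimmomatic 0.36 and build GRCm38 are named, per the submitters' processing notes. The sources used here do not give the counter, the annotation, the strand setting or the treatment of multi-mapping reads.

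Groups were formed from the labelled DOX and hormone treatments. After filterByExpr and TMM scaling, edgeR 4.0.16 in R 4.3.3 fitted one quasi-likelihood model to the 6 groups (12 residual degrees of freedom). P-values were adjusted by Benjamini-Hochberg over all 15494 genes of a comparison, with a threshold of 0.05. The SE is the absolute log2 fold change over the root of its F statistic. CPM use TMM-scaled library sizes. No 2 libraries of a group were copies, since chi-square over its degrees of freedom was at least 15.7 for each pair. The fit was also run on simulated counts in which genes were changed in DOX E2 alone, a simpler setting than these data. Its outcome is not given here, and nothing above rests on it.

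The members, gene lists and naming rules (all members, up to 4 called list genes with the smallest p, and the 3 closest genes by correlation) were chosen with earlier results of these data known. One result that falls under the naming rules is not reported here. The comparisons of P4 with E2 were added after seeing the data. Alternatives were DESeq2 size factors, the Wald test of DESeq2 1.42.0, other filters, the groups compared alone, a replicate block, an adipocyte score as covariate (mean of 15 markers) and each library left out.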

Additional observations from a re-analysis of the deposited data

Results flagged for a closer look

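The difference between the arms in the estradiol response was itself tested, as the interaction of E2 and DOX in edgeR's quasi-likelihood fit, and passed for 4 of the 8 genes. It was -2.982 for Zbtb16, 2.244 for Sgk1, -1.486 for Klf9 and -1.159 for Tsc22d3, on the log2 scale as DOX arm minus PBS arm. Each of these passed in all 19 alternatives run for it. Nr3c1 and Nr3c2, the receptors for glucocorticoids, had interactions of -0.85 and -1.36 in the same libraries, and their part in these results was not tested.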

How the results depend on the processing

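Over all comparisons, the 8 genes gave 1240 values under alternatives. Of these 1196 stayed on their side of the threshold, 25 lost a call, 18 gained one and 1 called value reversed its direction. The reversal was Hsd11b1 for DOX under E2 with the adipocyte score as a covariate (0.096), and its cause was not tested. Values without a call could change sign and still count among the 1196. Klf9 did so with E2 under PBS, at 0.33 in the main fit and -0.11 without PBS E2 replicate 3. For DOX under OIL the Wald test of DESeq2 called 2 genes in place of 0. With each library left out in turn, the count of called members was 3 to 5 for E2 under PBS, 6 under DOX, 3 to 5 for P4 under PBS, 3 to 4 under DOX, 0 for DOX under OIL, 4 to 6 under E2 and 0 under P4. It was 4 to 5 for the E2 interaction, 0 for the P4 interaction, 5 to 6 for P4 against E2 under PBS and 7 under DOX. Over all genes, DOX under E2 called 6358, against 3758 with the adipocyte covariate, and P4 under PBS 4930, against 3015. Replicate numbers did not pair the libraries by the rule that all 3 correlations of a pair of groups exceed 0.1, with -0.282 the lowest, although PBS OIL and DOX OIL came near (0.085 to 0.365), and the replicate block left 4 and 6 called members for E2, 4 and 4 for P4, 0, 7 and 0 for DOX and 4 and 0 for the interactions. With 3 libraries per group and 12 residual degrees of freedom, small differences could not be separated from the spread.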
